A study of Mus musculus with 6 samples.

Results

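The 10 genes of this group were the most highly expressed of the genes that remained on the low side of the Pum2 knockout colon once immunoglobulin genes, ribosomal protein genes and a few single genes had been set aside. The table held 68 genes, and 34 of them had a lower mean in Pum2-/- libraries than in WT libraries. Symbols beginning with Ighv, Ighe, Igkv, Iglv, Iglc, Rpl or Rps were dropped, as were Pum2, Edn1, Mmp9, Spink1 and Defa30, which left 15 genes. The 10 with the highest WT mean were taken, and 9 of them are described singly: Clca4a, Nxpe5, Ces1c, Hsd3b3, Srd5a2, Gm16015, Defa31, Scgb1b3 and Gal3st2c. The 10 were thus chosen by the very values that separate the genotypes, in a table whose genes the authors had already picked for a difference between the same libraries. Each difference between genotypes is therefore a description and carries no test. At the border of the choice, the last gene taken was Gal3st2c with a WT mean of 11.3, and the next in order were Cyp2f2 at 10.9, Rnase2a at 10.8 and Hsd3b2 at 9.13.

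The study asked whether loss of Pum2 alters gene expression in colon that has not been inflamed. RNA-seq was performed on colon from 3 WT and 3 Pum2-/- libraries, all from untreated mice on the background of the inbred FVB strain. The knockout line was kept on this background by repeated backcrossing to wild-type FVB mice, and the number of generations is not given. The knockout is global and is not limited to a cell type of the tissue. The colitis experiments used male mice matched for age, at 8 to 10 weeks, with untreated mice of each genotype as baseline, and whether the sequenced mice were these is not stated. The labels number the libraries and do not say whether each came from a mouse of its own. In bulk tissue, fewer cells of a type and less RNA per cell cannot be told apart.

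Pum2 is a Pumilio protein. Proteins of this family bind messenger RNA at a short sequence, most often in the 3′ untranslated region, and usually lower the stability or the translation of the RNA they bind. The surface of the colon is lined by absorptive colonocytes and mucus-secreting goblet cells, which also make enzymes that handle steroids, esters and glycans. Paneth cells, which release alpha-defensins, belong to the small intestine and are rare in the normal mouse colon. The targeted gene was at 17.8, 16.1 and 16.5 in WT replicates 1, 2 and 3 and at 2.94, 2.68 and 1.45 in Pum2-/- replicates 1, 2 and 3, in the units of the deposited normalized expression.

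Because Pum2 binds RNA, the transcripts of the 10 genes were searched for the Pumilio motif TGTANATA on the strand of the transcript, with T standing for U. The longest protein-coding transcript of each gene was taken from GENCODE M21, or the only transcript in the case of the noncoding Gm16015. None of these 10 transcripts held the motif, whereas 25.9% of 21866 protein-coding genes held it in their longest protein-coding transcript and 22.3% held it in the 3′ untranslated region. The share depends on length. Among genes within 10% of its length, the share with the motif was 25.5% for Clca4a, with a transcript of 3004 bases, and 68.9% for Gal3st2c, with a transcript of 9667 bases. For the short transcripts of Defa31, Scgb1b3 and Gm16015 the share was under 1%, at 0.885%, 0.617% and 0.714%. Over all 22 annotated transcripts of the 10 genes, 2 noncoding isoforms held a match, shown here with the motif in capitals because they are the sole matches found.
Hsd3b3, a processed transcript of 4766 bases, positions 1663 to 1670: tttctttaaaaTGTAGATAaaagcttcaaa
Ces1c, a retained-intron transcript of 1609 bases, positions 1579 to 1586: attctggactcTGTACATAaaacaaaagat
Of the 5 genes that the rule left below the 10, Hsd3b2, Cd200r2 and Kcnj16 held the motif in the 3′ untranslated region, at 1, 1 and 2 places, and Cyp2f2 and Rnase2a held none. The match of Hsd3b2, a neighbour of Hsd3b3 in the genome, is at positions 1815 to 1822 of its longest coding transcript.
Hsd3b2: ttgtgattttcTGTAAATAaacaattatat
A match in a transcript is a description of its sequence and not a measured binding site, and the lack of a match says only that these letters are not in the annotated transcript.

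**Figure D1:**
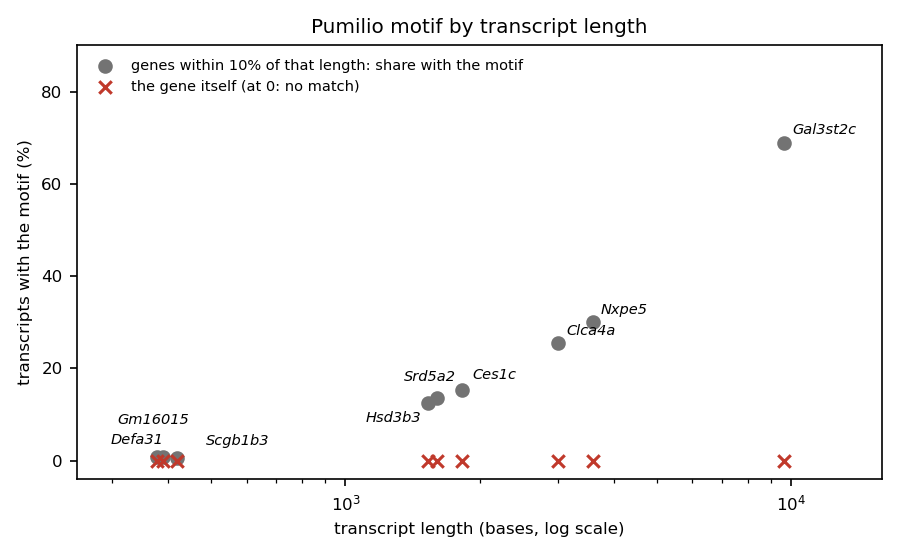
For each of 9 genes, the x axis gives the length of the transcript searched in bases on a log scale. Grey points give the percentage of protein-coding genes of like length that hold the Pumilio motif, from under 1% for the shortest to 68.9% for Gal3st2c, and red crosses mark the genes themselves, all at 0 because none held it.

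In all 10 genes, each of the 3 Pum2-/- values lay under each of the 3 WT values. Of all 68 listed genes, 29 were wholly lower in this sense, or 42.6%, and since the choice of the 10 genes rests on the same contrast, nothing is read from the comparison of these shares. The difference between genotypes, taken as the Pum2-/- minus the WT mean of log2(value + 1), had a median of -2.83 over the 10 genes, against -2.69 over the 34 listed lower genes. The added 1 makes this scale understate the change of low values. WT means were under 30 for 7 of the 10 genes, so that most of the group sits at low expression despite being the highest of what remained.

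**Figure D2:**
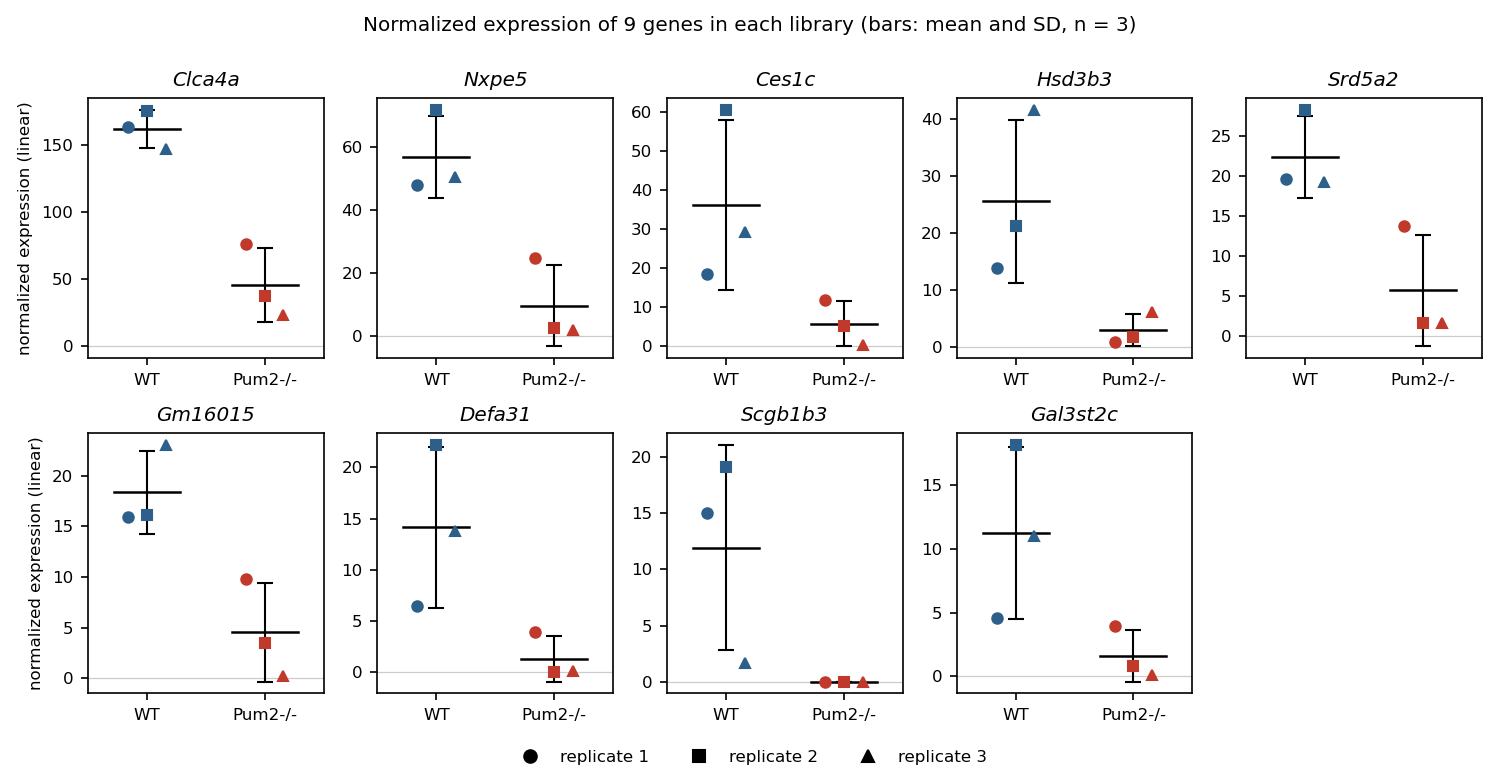
Normalized expression on a linear scale in each library for 9 of the genes, with circles, squares and triangles for replicates 1, 2 and 3, and black lines for the mean and the SD (n = 3). The WT points lie above the Pum2-/- points in every panel, with the narrowest gap in Gal3st2c, and Pum2-/- replicate 1 is the highest Pum2-/- library in 7 panels.

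Clca4a and Nxpe5 were the most highly expressed. Clca4a belongs to a family of regulators of calcium-activated chloride channels. Its values were 164, 176 and 147 in WT replicates 1 to 3 and 76.3, 37.3 and 23.1 in Pum2-/- replicates 1 to 3. The WT libraries lay close together, with a ratio of highest to lowest of 1.19, while the Pum2-/- libraries spread over a ratio of 3.30. The means were 162 ± 14.3 (SD, n = 3) in WT and 45.6 ± 27.5 (SD, n = 3) in Pum2-/- libraries, so that Pum2-/- expression was 28.1% of WT. The log2 difference was -1.97 (SE 0.494), the smallest in size of the 10. When every library was scaled to its median over the 54 listed genes above 0 in every library, it was -2.99. This was part of a shift that had a median of -0.91 over all listed genes. The listed genes were picked for a difference between genotypes, so this scaling is no correction for depth. Clca4a (ENSMUSG00000068547) lies on chromosome 3 of GRCm38 from 144952480 to 144975045 on the minus strand.

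Nxpe5, a gene of the NXPE family, was at 47.7, 71.6 and 50.5 in WT and at 24.5, 2.49 and 1.81 in Pum2-/- replicates 1, 2 and 3. Pum2-/- replicate 1 stood 9.85-fold above the next Pum2-/- library. The log2 difference was -3.17 (SE 1.03), and without Pum2-/- replicate 1 it was -4.18. Nxpe5 (ENSMUSG00000047592) lies on chromosome 5 from 138225898 to 138253363 on the plus strand.

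A second set of genes encodes enzymes that act on steroids and esters. Their promoters are shown first, as the sequence from which these enzyme genes are transcribed. That all 3 were lower is what the rule chose them for. Each stretch is the 250 bases before the start site in RefSeq on GRCm38.p6, the C57BL/6J reference, not the FVB genome. Capitals mark matches, on either strand, to 4 sets of letters. The TATA box was searched as TATAAA. The motif of GATA factors was searched as AGATAA. The motif of CDX factors, which direct intestinal identity, was searched as TTTATG. Part of the motif of the nuclear receptor HNF4 was searched as CAAAGTC.
Ces1c, chr8:93131284-93131533, minus strand: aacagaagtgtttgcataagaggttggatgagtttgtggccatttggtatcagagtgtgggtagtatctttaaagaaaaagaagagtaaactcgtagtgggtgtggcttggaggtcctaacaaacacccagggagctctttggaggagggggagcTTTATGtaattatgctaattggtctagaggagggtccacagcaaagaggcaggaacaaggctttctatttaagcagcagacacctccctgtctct
Hsd3b3, chr3:98763129-98763378, minus strand: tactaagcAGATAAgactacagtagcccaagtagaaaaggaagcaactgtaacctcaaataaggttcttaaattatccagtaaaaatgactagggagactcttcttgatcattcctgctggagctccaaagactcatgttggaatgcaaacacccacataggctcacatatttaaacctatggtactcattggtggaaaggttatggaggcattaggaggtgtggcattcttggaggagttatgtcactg
Srd5a2, chr17:74047861-74048110, minus strand: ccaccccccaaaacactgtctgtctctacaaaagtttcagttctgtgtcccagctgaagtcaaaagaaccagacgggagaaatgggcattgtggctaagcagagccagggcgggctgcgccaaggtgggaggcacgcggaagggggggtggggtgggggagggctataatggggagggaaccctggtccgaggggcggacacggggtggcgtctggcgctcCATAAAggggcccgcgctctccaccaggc
The CDX letters were found in Ces1c and Srd5a2, or 2 of the 6 members with a promoter in the table, against 11.1% of 27025 genes with a promoter. The GATA letters were found in Hsd3b3, or 1 of 6, against 10.2% of all promoters. The TATA letters were found in 2 of 6, Defa31 and Gal3st2c, against 12.97% of all promoters, and the HNF4 letters in 0 of 6, against 3.80%. Hsd3b3 has a second annotated start site. Its upstream stretch is nearly the same sequence and so holds the same GATA letters. With 6 promoters, no difference from the share among all genes can be read from these counts.

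Ces1c is a carboxylesterase, an enzyme that splits esters of drugs and lipids. Its values were 18.6, 60.5 and 29.3 in WT and 11.8, 5.31 and 0.278 in Pum2-/- replicates 1, 2 and 3. Both genotypes spread widely, over a ratio of 3.25 in WT and 42.3 in Pum2-/- libraries, and the lowest WT value was 1.58-fold above the highest Pum2-/- value. The log2 difference was -2.82 (SE 1.09), and it was -1.89 without Pum2-/- replicate 3. Ces1c (ENSMUSG00000057400) lies on chromosome 8 from 93099015 to 93131283.

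Hsd3b3 belongs to the hydroxysteroid dehydrogenases that carry out an early oxidation in the making of steroid hormones. It was at 13.9, 21.2 and 41.6 in WT and at 0.963, 1.73 and 6.18 in Pum2-/- replicates 1, 2 and 3. It was the only one of the 10 with replicate 3 the highest and replicate 1 the lowest in both genotypes. Pum2-/- expression was 11.6% of WT, and the log2 difference was -2.84 (SE 0.714). Its neighbour Hsd3b2, 16979 bases away on chromosome 3 and also on the authors' list, was listed at 0 in all 3 Pum2-/- libraries and at 5.56, 6.06 and 15.8 in WT. Hsd3b3 (ENSMUSG00000062410) lies on chromosome 3 from 98741523 to 98763127.

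Srd5a2 encodes a steroid reductase that turns testosterone into the more potent dihydrotestosterone. Its values were 19.6, 28.2 and 19.3 in WT and 13.8, 1.65 and 1.66 in Pum2-/- replicates 1, 2 and 3. As in Nxpe5, Pum2-/- replicate 1 stood apart, 8.28-fold above the next Pum2-/- library and near the lowest WT value. The log2 difference was -2.29 (SE 0.842), and without Pum2-/- replicate 1 it was -3.12. Nxpe5 and Srd5a2 kept a similar ratio in the WT libraries, with Nxpe5 at 2.43, 2.54 and 2.62 times Srd5a2, although they lie on different chromosomes; this pair was picked after its values had been seen. In the Pum2-/- libraries the ratio was 1.78, 1.51 and 1.09. Srd5a2 (ENSMUSG00000038541) lies on chromosome 17 from 74016955 to 74047916.

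Among genes for secreted proteins and glycan sulfation, Defa31, Scgb1b3 and Gal3st2c had the lowest WT means of the 10. Defa31 encodes an alpha-defensin, a small antimicrobial peptide of Paneth cells. It was at 6.46, 22.2 and 13.8 in WT and at 3.94, 0 and 0.0816 in Pum2-/- replicates 1, 2 and 3. The order of the libraries was that of Defa30, which lies 56015 bases away on chromosome 8 and was at 12.97, 48.4 and 34.0 in WT and at 6.89, 0 and 0.134 in Pum2-/- libraries. The log2 difference of Defa31 was -2.97 (SE 0.888), and with a pseudocount of 0.1 it was -4.92. Defa31 (ENSMUSG00000074442) lies on chromosome 8 from 21191614 to 21192549. Its promoter is shown because the TATA letters, in capitals, began 33 bases before the start site.
Defa31, chr8:21191323-21191572, plus strand: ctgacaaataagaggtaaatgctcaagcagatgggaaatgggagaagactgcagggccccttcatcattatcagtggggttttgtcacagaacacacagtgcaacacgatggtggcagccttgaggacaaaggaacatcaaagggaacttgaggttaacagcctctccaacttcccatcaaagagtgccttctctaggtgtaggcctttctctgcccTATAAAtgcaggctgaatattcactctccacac

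Scgb1b3 is a secretoglobin, one of a large mouse family of small secreted proteins related to androgen-binding protein. It was listed at 0 in all 3 Pum2-/- libraries, and at 15.0, 19.2 and 1.69 in WT replicates 1, 2 and 3. WT replicate 3 was thus close to the Pum2-/- libraries, and the ratio of highest to lowest WT value, 11.4, was the widest of the 10. No fold is given against a genotype listed at 0. Scgb1b3 (ENSMUSG00000095257) lies on chromosome 7 from 31375592 to 31376916.

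Gal3st2c belongs to the sulfotransferases that add sulfate to galactose in glycans, mucin glycans among them. Its values were 4.59, 18.1 and 11.02 in WT and 3.93, 0.847 and 0.0996 in Pum2-/- replicates 1, 2 and 3. The genotypes came closest here, with the lowest WT value 1.17-fold above the highest Pum2-/- value. The log2 difference was -2.33 (SE 0.819). All 3 Pum2-/- values of Gal3st2c were identical, to the last deposited digit, to those of the immunoglobulin gene Ighe, whose WT values were 13.1, 12.1 and 8.21. Gal3st2c (ENSMUSG00000073608) lies on chromosome 1 from 93990509 to 94017147.

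Gm16015 (ENSMUSG00000087281) is a noncoding RNA of 390 bases on chromosome 5, from 43909215 to 43909885 on the minus strand. All 671 bases of the gene lie within Cd38, a gene on the plus strand for an enzyme that consumes NAD, with 0 bases of overlap between the exons of their longest transcripts. Whether the counting used strand is not given in the sources used here, so reads from unspliced Cd38 RNA cannot be told apart from Gm16015. Its values were 15.9, 16.1 and 23.1 in WT and 9.82, 3.51 and 0.232 in Pum2-/- replicates 1, 2 and 3. The Pum2-/- libraries ranged over a ratio of 42.3, against 1.45 in WT. The log2 difference was -2.29 (SE 0.925), and it shrank to -1.45 without Pum2-/- replicate 3.

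**Figure D3:**
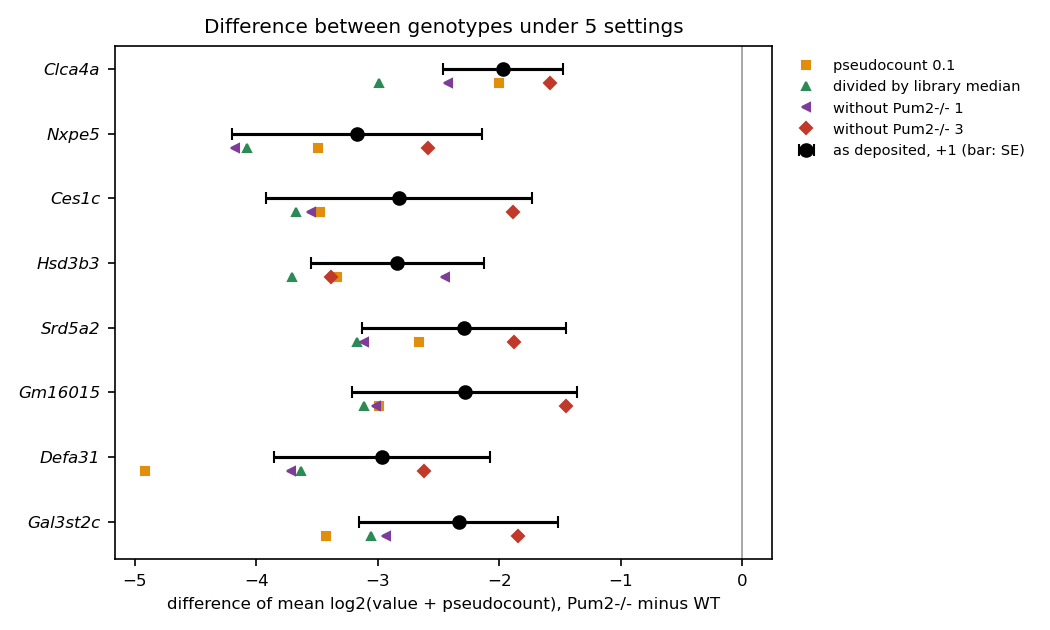
Difference of mean log2 expression, Pum2-/- minus WT, for 8 genes with a Pum2-/- value above 0, as black points with their SE, and under 4 other settings as coloured marks. All marks lie left of 0, Defa31 moves farthest with a pseudocount of 0.1, and Gm16015 comes closest to 0, at -1.45 without Pum2-/- replicate 3.

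Within a genotype, the rule fixed nothing about which library is high. WT replicate 2 was the highest WT library for 7 of the 10 genes and the lowest for none, against the highest for 9 and the lowest for 5 of the other 24 lower genes. Of the 9 genes with a Pum2-/- value above 0, Pum2-/- replicate 1 was the highest of its genotype in 7, against 14 of 22 among the other lower genes. The coefficient of variation had a median of 44.1% over the 10 genes in WT and of 123% over those 9 genes in Pum2-/- libraries. Among the other lower genes it was 55.5% over 24 genes in WT and 81.2% over 22 genes in Pum2-/- libraries. This coefficient divides by the mean, and the rule chose genes for a lower Pum2-/- mean, so nothing is read from the larger Pum2-/- values. Pum2-/- replicate 3 had values above 0 but under 0.5 in 5 of the 10 genes, with Ces1c, Gm16015, Defa31 and Gal3st2c among them, and in 10 of the other 24 lower genes, where the other 5 libraries had 0 such values in either set. The part of the authors' normalization in its low values was not tested.

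Several of the 10 genes have close copies, which matters because a read from a shared stretch cannot be assigned to 1 gene. The share of 50-base stretches of the transcript that also occur in transcripts of other genes, on either strand, was 100% for Defa31, all of them found in Defa23. The values of Defa31 may thus be those of another alpha-defensin gene in part or whole, depending on the counting. The share was 41.0% for Clca4a, mostly with Clca4c-ps and Clca4b, and 34.0% for Hsd3b3, of which Hsd3b2 accounted for most. It was 27.8% for Scgb1b3, 17.0% for Ces1c and 10.96% for Gal3st2c, with the largest part in each case found in a gene of the same family. Srd5a2 at 6.23% and Nxpe5 at 3.54% had little shared sequence, and Gm16015 had 0%. The exons of Clca4a also overlap those of the antisense gene Gm16233 by 334 bases. Hsd3b3 overlaps the protein-coding gene Zfp697 on the opposite strand over 12290 bases, with 0 bases of overlap between the exons of their longest transcripts. Transcripts of Zfp697 held 9.43% of the 50-base stretches of Hsd3b3. Srd5a2 overlaps the gene CT025731.1 on the same strand over 20919 bases, with 144 bases of overlap between exons. Counting by strand would not tell reads from that overlap apart.

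**Figure D4:**
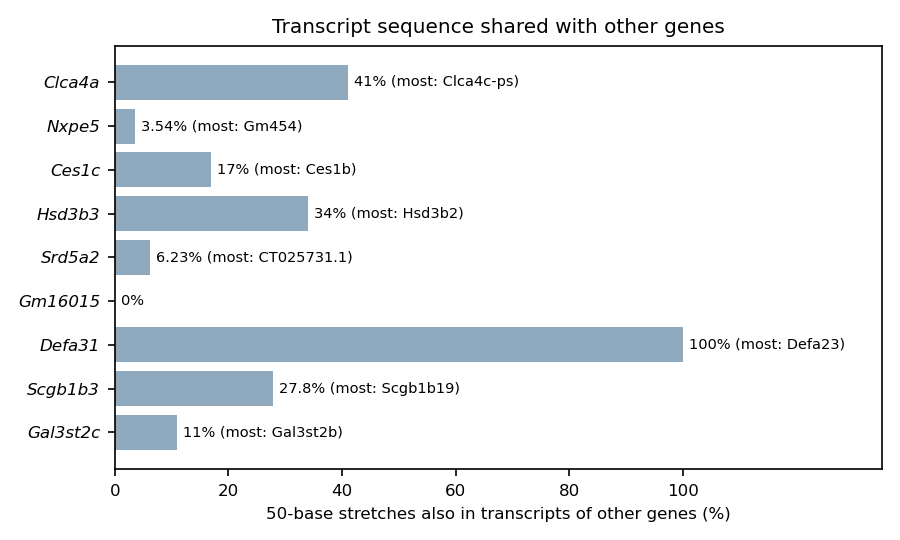
Bars give, for each of 9 genes, the percentage of 50-base stretches of its transcript that also occur in transcripts of other genes, with the gene that shares most named beside the bar. Defa31 reaches 100%, Clca4a 41.0% and Hsd3b3 34.0%, while Gm16015 is at 0.

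None of the 10 genes was in a marker list for a cell type. The lists were written with earlier results known, and the Paneth cell list held Defa30 but not Defa31, another alpha-defensin. These lists therefore do not show whether any of the 10 genes marks a cell type. Of 15 such lists, 9 had no gene in the table, the colonocyte (0 of 8), goblet cell (0 of 6) and small intestinal enterocyte (0 of 9) lists among them, so the labelled tissue could not be checked against its defining markers. The lists with a gene in the table were those of Paneth cells (Defa30, 1 of 7), erythrocytes (Hba-a1, 1 of 5), pancreatic acinar cells (Spink1, 1 of 10), neutrophils (Mmp9, 1 of 5), endothelium (Edn1, 1 of 4), and T and NK cells (Nkg7, Gzma and Gzmb, 3 of 6). Defa30, Spink1, Mmp9 and Edn1 were wholly lower in Pum2-/- libraries, Nkg7, Gzma and Gzmb wholly higher, and Hba-a1 overlapped. Of 6 pathway lists, the xenobiotic metabolism list had 0 of 7 genes in the table and the defence list had 1 of 9, Saa3, which was wholly higher. The other pathway lists, for the circadian clock, immediate early genes, lipid metabolism and heat shock, had no gene in the table.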

How the data were processed

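RNA-seq libraries of colon were made with Trizol RNA and a SMARTER mRNA kit. The authors deposited a normalized expression signal for each listed gene and library, and the aligner, counting tool, genome build and normalization are not given in the sources used here. Total depth is unknown, so no counting error or detection limit is given. The table also holds results of their own comparison (a fold change with raw and adjusted p-values), which were not used. A pair of the 69 rows shares an Ensembl identifier and was counted once. For 1 of the 10 genes, single values are not reported here. Whole reads could not be recovered, so no count model was fitted.

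Sample titles gave the genotype and the replicate number. The 10 genes, the marker and pathway lists and the named genes (the 10 members, those just below them in WT mean, Pum2 and listed marker genes) were chosen with earlier results of these data known. Values listed in the file as vanishingly small, far under any other value, were taken as 0. Genotypes were described by each library's value, the mean and SD, and the difference of means of log2(value + 1) with its SE. No test was run on a difference that chose the genes, and 3 against 3 libraries cannot go below p = 0.1 in a two-sided exact permutation test. The functions were tested on simulated data. Positions and transcripts came from GENCODE M21 (GRCm38), matched by Ensembl identifier, with all 10 found, and promoters from RefSeq (GRCm38.p6), with 6 found. Both are C57BL/6J sequence, so the motif matches and the stretches shared between genes were not checked in the FVB genome. Python 3.11.15, numpy 2.4.6, pandas 2.3.3 and matplotlib 3.10.9 were used. As alternatives, each library was scaled to its median over the listed genes above 0 in every library, or left out. Same-numbered libraries were set against each other, and the pseudocount was lowered to 0.1 or replaced by a ratio of means. The genes were also restricted to a mean of at least 10, stripped of immunoglobulin genes or widened to all 15.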

Additional observations from a re-analysis of the deposited data

How the results depend on the processing

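All 10 genes were wholly lower in Pum2-/- libraries after division by library medians over the 54 listed genes above 0 in every library. The divisors were 29.8, 33.4 and 33.7 for Pum2-/- libraries 1 to 3 and 14.9, 12.6 and 20.8 for WT libraries 1 to 3. Because every Pum2-/- divisor was above every WT divisor, neither this count nor that over all listed genes could fall. The differences of the 10 genes could only grow in size. Leaving out a library cannot make groups overlap that do not, so the range of 10 to 10 over those settings was fixed beforehand and says nothing about stability. The count of listed genes wholly lower was 29 as deposited, 33 after division by library medians, 20 without immunoglobulin genes and from 29 to 31 with 1 library left out, and it was 17 of the 51 genes with a mean of at least 10, a filter that removes genes. That filter kept 7 of the 10 genes. The median log2 difference of the 10 was -2.83, and it was -3.45 with a pseudocount of 0.1, -2.60 as the log2 ratio of group means, -3.66 after division by library medians, -2.80 over all 15 remaining genes and from -3.07 to -2.24 with 1 library left out. Of 89 single-gene values under these settings, 84 moved by less than 1 SD within genotypes, 5 moved by more and 0 changed sign. The lack of sign changes follows from the lack of overlap. Leaving out 1 of 3 libraries cannot move a difference by 1 such SD, so those values had to count as unmoved. Among the other settings, 4 genes moved by more with a pseudocount of 0.1 and 1 after division by library medians. All 9 log2 ratios of group means moved by less. With the replicate block, all 3 same-numbered pairs were lower in Pum2-/- for 10 of the 10 genes and for 31 listed genes, a count that for the 10 genes follows from the lack of overlap and is no check of them. Deviations from genotype means correlated at 0.106, 0.0415 and 0.265 in pairs 1, 2 and 3 over the listed genes, so the shared numbers are not read as pairing. Counting error at low values, which touches most of the 10 genes, could not be estimated without depth.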

Other observations

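Below the border of the 10 genes stood Cyp2f2, Rnase2a, Hsd3b2, Cd200r2 and Kcnj16, and each was wholly lower in Pum2-/- libraries. Cyp2f2 is a cytochrome P450 gene, best known from the airway, and was at 8.39, 17.1 and 7.28 in WT and at 2.95, 0 and 0.0626 in Pum2-/- replicates 1, 2 and 3. Rnase2a, an eosinophil-associated ribonuclease gene, was at 14.1, 10.1 and 8.21 in WT and at 2.94, 2.69 and 0.116 in Pum2-/- libraries. Cd200r2, a receptor gene of the Cd200 receptor family, was at 2.72, 11.1 and 12.0 in WT and at 0, 0.912 and 0.0218 in Pum2-/- libraries. Kcnj16, a gene for an inward rectifier potassium channel, was listed at 0 in all 3 Pum2-/- libraries and was at 2.75, 9.07 and 5.50 in WT.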
